A study of Mus musculus with 24 samples.

Results

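Rpgrip1, Rnase4, Ang and Supt16 are 4 genes that lie close together on mouse chromosome 14. They were taken by their names, with every probe set that the array annotation gives to any of them and to no other gene. This made 4 of 12393 named genes and 8 of 22626 probe sets tested. RNA from the lungs of males, 8 weeks old, was hybridised to 24 Affymetrix 430A arrays, 2 for each of 12 strains. The strains were 9 recombinant inbred (RI) strains (BXH2, BXH4, BXH6, BXH7, BXH8, BXH9, BXH10, BXH14 and BXH19), the hybrid BXHF1 (F1 below), and the progenitors C3H/HeJ (C3) and C57BL/6J (B6). All came from the Jackson Lab, and none was treated. Inbreeding from a cross of C3 and B6 leaves each RI strain with a mosaic of segments, homozygous for the allele of C3 or of B6, and the hybrid carries both alleles. Nothing in the labels states that a strain's pair of arrays came from different mice, so the p-values cover only the variation between these samples, and that variation may be technical.

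The members were chosen with the C3 against B6 difference and the pattern over RI strains already known. Those values are therefore given as a description, without a test, and the hybrid's values, which are set against the same progenitor arrays, are a description too. Tests are given for other genes. A probe set is a group of short oligonucleotides against a transcript, and its value is a linear signal without units. Differences are on the scale of log2(signal + 16), which understates the change of dim probe sets.

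The 4 genes have unlike roles. Rpgrip1 is a scaffold protein of the photoreceptor connecting cilium, where it holds the retinitis pigmentosa GTPase regulator Rpgr, and its loss causes retinal degeneration in mice. Rnase4 and Ang are small secreted ribonucleases of the RNase A superfamily; angiogenin, the product of Ang, cuts tRNA in stressed cells and stimulates vessel growth, and the cytosolic inhibitor Rnh1 binds such enzymes. Supt16 is the large subunit of FACT, a histone chaperone that takes nucleosomes apart and rebuilds them as RNA polymerase II passes.

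In the RefSeq gene order of GRCm38.p6, Ang and Rnase4 are numbers 988 and 989 of 2328 annotated genes on chromosome 14, and Rpgrip1 and Supt16 are numbers 1038 and 1040, with 49 other genes between the first and the last member. Rnase4 and Ang lie on the plus strand, and their annotated spans overlap. Rpgrip1 lies on the plus strand and Supt16 on the minus strand, and their spans overlap too, the genes being transcribed toward each other. The starts are shown because Rnase4 and Ang share the same start window, whereas Rpgrip1 and Supt16 have separate windows that differ in base composition. All are from 1 reference build, so they show no sequence difference between C3 and B6. A link between the windows and the strain differences was not tested. The windows are those of RefSeq on GRCm38.p6, from 250 bases before to 50 after the start, read 5′ to 3′ on the gene's strand. The windows of Rnase4 and Ang are the same 300 bases (chr14:51090827-51091126, plus strand), that of Rpgrip1 is chr14:52110653-52110952 (plus strand) and that of Supt16 is chr14:52197190-52197489 (minus strand). Capitals mark matches, on either strand, to the CCAAT box (CCAAT), the GC box (GGGCGG) and the TATA box (TATAAA).
Rnase4 and Ang: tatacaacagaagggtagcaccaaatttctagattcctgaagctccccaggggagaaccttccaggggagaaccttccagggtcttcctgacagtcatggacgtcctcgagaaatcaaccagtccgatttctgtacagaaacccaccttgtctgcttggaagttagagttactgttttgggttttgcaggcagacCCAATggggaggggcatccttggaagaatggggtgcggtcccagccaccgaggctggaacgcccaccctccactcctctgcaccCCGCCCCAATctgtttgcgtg
Rpgrip1: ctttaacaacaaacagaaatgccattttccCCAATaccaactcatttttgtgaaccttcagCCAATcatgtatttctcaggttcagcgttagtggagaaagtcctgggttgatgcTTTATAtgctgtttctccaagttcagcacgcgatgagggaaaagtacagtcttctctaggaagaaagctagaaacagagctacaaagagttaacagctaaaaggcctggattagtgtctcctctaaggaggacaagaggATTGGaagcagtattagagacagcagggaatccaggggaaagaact
Supt16: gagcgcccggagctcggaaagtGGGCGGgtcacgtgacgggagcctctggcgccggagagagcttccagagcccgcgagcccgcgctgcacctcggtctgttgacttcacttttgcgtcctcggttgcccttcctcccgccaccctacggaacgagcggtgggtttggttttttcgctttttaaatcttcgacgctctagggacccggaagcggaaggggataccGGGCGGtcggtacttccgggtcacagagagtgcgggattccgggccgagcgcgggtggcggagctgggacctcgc
The shared Rnase4 and Ang window held 2 CCAAT matches and 1 GGGCGG match, the last of which overlaps a CCAAT match. The Rpgrip1 window held 3 CCAAT matches and 1 TATAAA match, and the Supt16 window held 2 GGGCGG matches. Among 32817 distinct start windows of the same table, 37.4% held CCAAT, 35.6% GGGCGG and 13.6% TATAAA. Supt16 had 35 CG dinucleotides, more than 93.0% of these windows; the shared window had 8, Rpgrip1 had 3, and the median window had 7. Rnase4 has a further annotated start (chr14:51095750-51096049, plus strand), whose window held 0 matches to these motifs. Such matches describe letters and do not show that a factor binds.

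Rpgrip1 had the widest differences of the 4 genes, in 1 of its 4 probe sets. Probe set 1421144_at read 42.2 and 83.5 on the C3 arrays, against 1547.3 and 1392.4 on the B6 arrays. The strain means were 62.85 ± 29.2 in C3 and 1470 ± 110 in B6 (SD, n = 2 each), and the difference was -4.29 on the log2 scale (SE 0.33). The F1 arrays lay between them at 665.5 and 727. Among the 18 RI arrays, 10 read 72.8 to 176.2 with a median of 111.4, and 8 read 1391.7 to 2653.4 with a median of 1753. The low arrays were all those of BXH2, BXH4, BXH8, BXH14 and BXH19, the high ones all those of BXH6, BXH7, BXH9 and BXH10, and no RI array lay between. In whole lung, fewer cells of a type and less RNA per cell cannot be told apart.

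Ordered by strain mean from high to low, Rpgrip1 ran BXH9, BXH7, BXH10, BXH6, B6, F1, BXH14, BXH2, BXH19, BXH4, BXH8 and C3. Of the 11 pairs of neighbours in this order, 8 had overlapping arrays. The gaps were between B6 and F1, between F1 and BXH14, and between BXH8 and C3. The highest strain, BXH9, averaged 2354 ± 266, above B6, and the 5 low RI strains averaged 98.4 to 136.2, all above C3.

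The other Rpgrip1 probe sets were dim. 1454231_a_at averaged 39.56 over all arrays, with 19.3 and 20.9 in C3 against 84.7 and 41.6 in B6 and a log2 difference of -1.08 (SE 0.46). It was lower in C3 like the bright probe set, but its 11 neighbouring pairs of strains all overlapped, and BXH9, the highest strain on the bright probe set, was its lowest at 19.15 ± 2.33. 1451785_at averaged 11.6 and 1431357_a_at 10.28, with C3 minus B6 differences of 0.03 (SE 0.44) and 0.06 (SE 0.45). The probe sequences were not used here, so for Rpgrip1, Supt16 and the other members a strain difference in RNA level and one in hybridisation, from sequence differences under the probes, cannot be told apart. The large Rpgrip1 difference rests on a single probe set, and the correlation of strain means between the bright probe set and these 3 was 0.54, 0.11 and -0.18 over 12 strains.

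Markers of photoreceptors, the cells in which Rpgrip1 is best known, mostly had low signals in these lungs. Of 8 listed genes 7 were measured, and their summed signal ran from 359 to 832.5 over the arrays, with 446.6 and 458.9 in C3 and 618.7 and 440.1 in B6. The transcription factors Crx and Nrl averaged 185.2 and 136.7 and the arrestin Sag 112.2, while Gnat1, Pde6a, Pde6b and the disc protein Prph2 averaged 50.98, 44.98, 9.683 and 7.446. Of these 7, 1 was in the brightest 60% of probe sets, Crx. Of 12 listed genes of ciliated airway cells 7 were measured; their summed signal was 7804 and 9028 in C3, against 9148 and 9550 in B6. In C3 minus B6, 0 of these 7 passed in limma, although Dnah5, a dynein of motile cilia, had an unadjusted p of 0.0249.

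**Figure D1:**
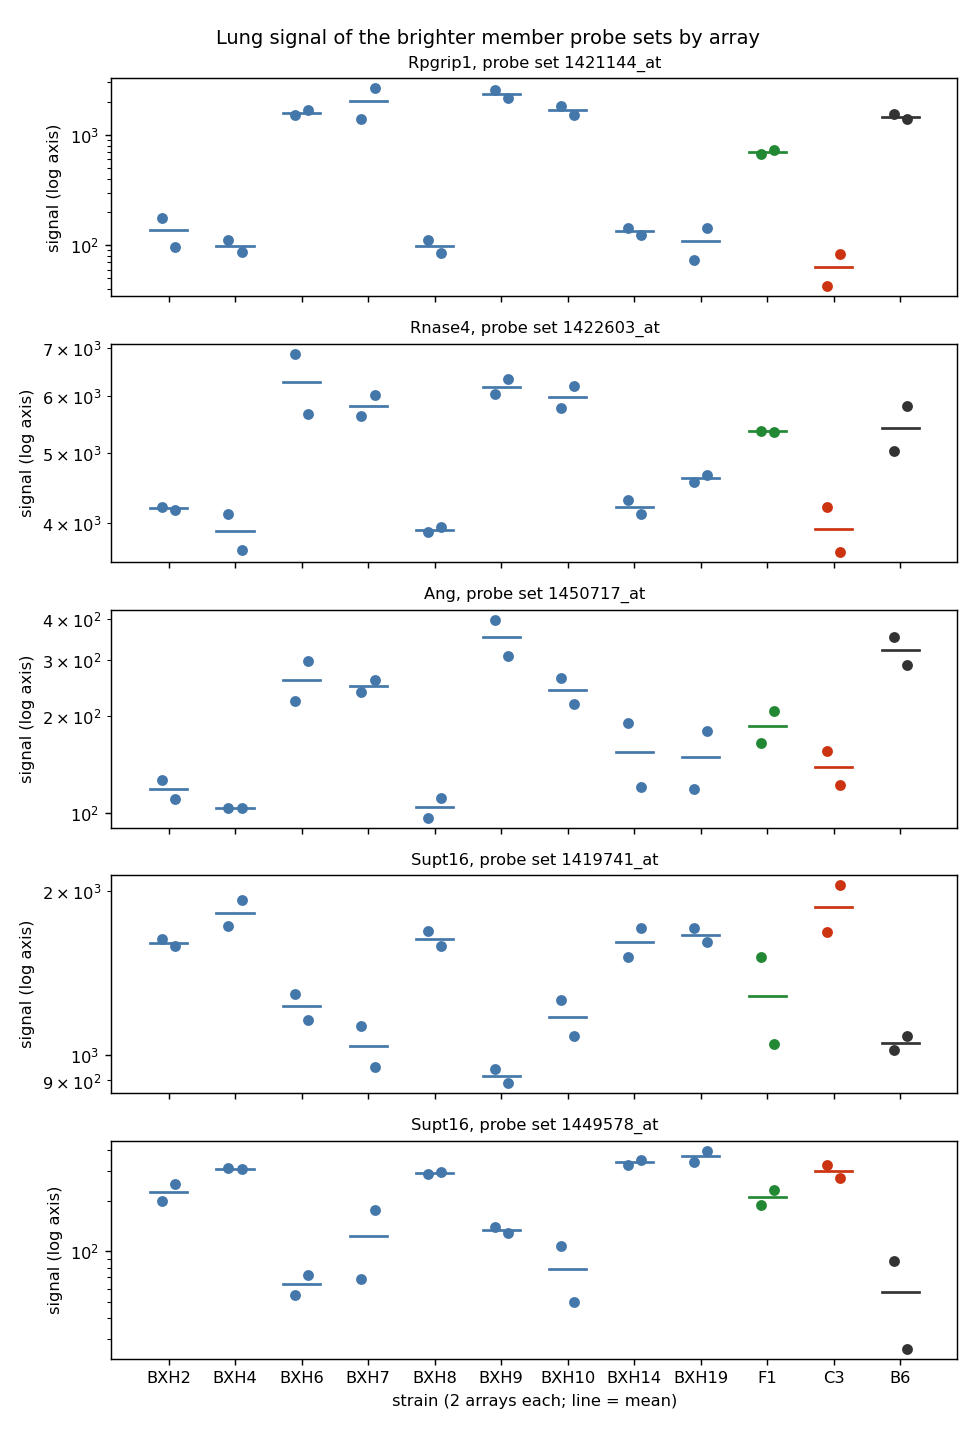
Signal of the 5 brighter member probe sets on each array (points, log axis) by strain (2 arrays each, line at the mean). Rpgrip1 is high in BXH6, BXH7, BXH9, BXH10 and B6, low in the other RI strains and C3 and intermediate in F1; Rnase4 and Ang follow the same order broadly and both Supt16 probe sets the opposite order.

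Rnase4 was the brightest member, with a mean signal of 4981 on 1422603_at, above 98.6% of probe sets, and it varied least. It read 4211.1 and 3641.7 in C3, against 5029.5 and 5809.2 in B6. The log2 difference was -0.46 (SE 0.12), with C3 at 3926 ± 403 and B6 at 5419 ± 551 (SD, n = 2 each). The arrays of the progenitors did not overlap. The 10 arrays of BXH2, BXH4, BXH8, BXH14 and BXH19 read 3671.5 to 4664.8 with a median of 4143. The 8 arrays of BXH6, BXH7, BXH9 and BXH10 read 5630 to 6867.2 with a median of 6023. As for Rpgrip1, no array of the first 5 strains reached any of the other 4.

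To place the strains between the progenitors, a position was computed for each strain as its difference from B6 over the difference of C3 from B6, so that B6 is 0 and C3 is 1. BXH6, BXH9, BXH10 and BXH7 lay beyond B6 for Rnase4, at -0.45, -0.42, -0.31 and -0.23, and BXH19 lay midway at 0.49, with a mean of 4614 ± 71.4. For Rpgrip1 the same 5 strains stood at -0.03, -0.16, -0.04, -0.09 and 0.85. Positions for Rnase4 divide by a difference of only -0.46 (SE 0.12), and whether they differ from those of Rpgrip1 was not tested. Quantile normalization put BXH19 on the side of C3 for Rnase4, which made 5 strains nearer C3 in place of 4, and so did leaving out BXH19 replicate 2, C3 replicate 2 or B6 replicate 1. In the order of Rnase4 means 9 of 11 neighbouring pairs overlapped, and BXH19 was separate from both of its neighbours, F1 and BXH14.

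Ang, which shares its start with Rnase4, was far dimmer but changed by more. On 1450717_at it read 155.7 and 122.1 in C3, against 351.3 and 289.1 in B6, a log2 difference of -1.12 (SE 0.25). The means were 138.9 ± 23.8 in C3 and 320.2 ± 44 in B6 (SD, n = 2 each). The 10 arrays of BXH2, BXH4, BXH8, BXH14 and BXH19 read 96.8 to 189.9 with a median of 115.2. The 8 arrays of BXH6, BXH7, BXH9 and BXH10 read 219 to 399.2 with a median of 261.4. BXH4 and BXH8 were lowest, at 103.7 ± 0 and 104.2 ± 10.5, with positions of 1.32 each beyond C3, and BXH9 was highest at 353.3 ± 64.9. In the order of Ang means 10 of 11 neighbouring pairs overlapped, the exception being BXH10 above F1.

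Supt16 ran opposite to the other members on both of its probe sets. On 1419741_at it read 1684.3 and 2047.4 in C3, against 1024.8 and 1086.2 in B6, a log2 difference of 0.81 (SE 0.15). The mean signal in C3 was 1.77 times that in B6. The 10 arrays of BXH2, BXH4, BXH8, BXH14 and BXH19 read 1514.5 to 1927.2 with a median of 1659. The 8 arrays of BXH6, BXH7, BXH9 and BXH10 read 889.4 to 1296.4 with a median of 1107, and no array of one set of strains reached the other. BXH9, highest for Rpgrip1 and Ang, was lowest for Supt16 at 917.2 ± 39.3.

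The second Supt16 probe set, 1449578_at, was annotated to the same source sequence but was dimmer, with a mean signal of 208.5. It read 327.4 and 272.1 in C3, against 88 and 26.3 in B6. The log2 difference was 2.25 (SE 0.39), and it stood at 2.89 without B6 replicate 1, 1.60 without B6 replicate 2 and 1.63 with an offset of 64 in place of 16. The same 5 strains read 199.4 to 396.8 and the other 4 read 49.7 to 177.5. BXH9 lay midway on it, at a position of 0.52. The number of RI strains nearer C3 on this probe set was 6. It was 5 with an offset of 64 or without BXH9 replicate 1, C3 replicate 2 or B6 replicate 2, and 7 without BXH7 replicate 1 or B6 replicate 1. The strain means of both Supt16 probe sets correlated at 0.80 over 12 strains.

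In the fit over all probe sets limma called 268 of 22626 (1.18%) in C3 minus B6 at an adjusted p (Benjamini-Hochberg) below 0.05. Of the 8 member probe sets 4 were called: the bright one of Rpgrip1 and that of Ang among those lower in C3 (0.676% of all probe sets), and both of Supt16 among those higher in C3 (0.508%). Leaving out C3 replicate 1, C3 replicate 2 or B6 replicate 1 left 2 of these 4 called, Rpgrip1 and 1 of the Supt16 probe sets, and leaving out B6 replicate 2 left 1, Rpgrip1. On the arrays of 6 of the 8, C3 and B6 did not overlap, as in 33.7% of all probe sets. Over the 9 RI strains 5 of the 8 were called, against 5.44% of all probe sets. Because the members were chosen on these contrasts, nothing is read from these counts. The 3 dim Rpgrip1 probe sets were below the level of the brightest 60% of probe sets, a mean signal of about 169, and the other 5 were above it.

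**Figure D2:**
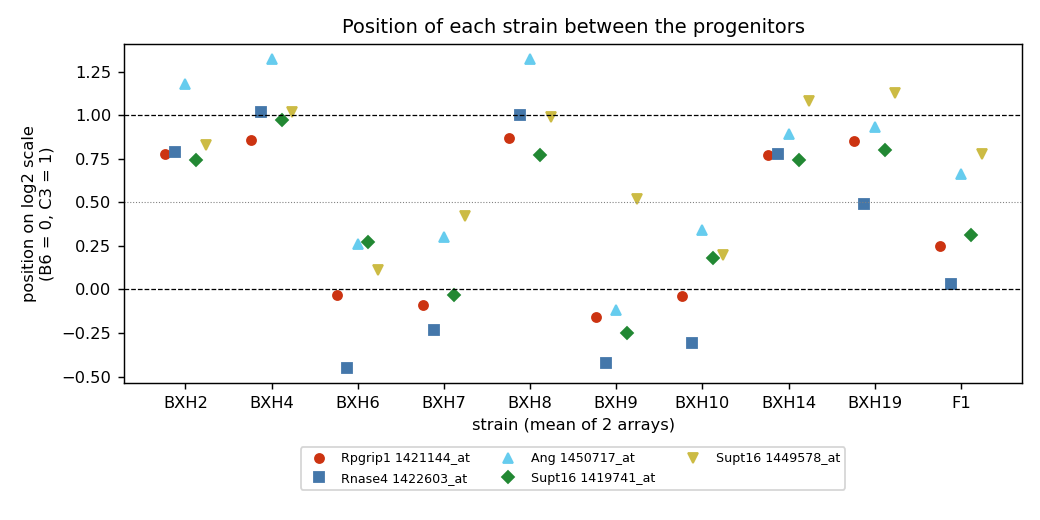
Position of each RI strain and F1 between B6 (0) and C3 (1) on the log2 scale for the 5 brighter member probe sets (mean of 2 arrays). BXH2, BXH4, BXH8 and BXH14 are nearer C3 on all 5, BXH6, BXH7 and BXH10 nearer B6 on all 5, while BXH19 is midway for Rnase4 (0.49) and BXH9 midway for the dimmer Supt16 probe set (0.52).

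The hybrid was set against the midparent, the average of the C3 and B6 log2 means. The members were chosen over all arrays and the midparent rests on the C3 and B6 arrays, so this contrast is no independent test of them. Limma called 14 of 22626 probe sets (0.0619%) in this contrast, and 0 of the 8 member probe sets. At an unadjusted p below 0.05 it had 6.4% of all probe sets and 2 of the 8 members, Rpgrip1 1421144_at and Rnase4. Nothing is read from these counts of members.

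The F1 signal of Rpgrip1 was 696.2 ± 43.5, against a mean of the C3 and B6 signals of 766.3. On the log2 scale F1 lay above the midparent by 1.08 (95% interval 0.48 to 1.68). Both F1 arrays were above it. The direction depends on the scale: against the mean of linear signals F1 stood at 0.909 times that mean, a log2 value of -0.14. Its position was 0.25.

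Rnase4 read 5364.2 and 5351.1 in F1, close to the B6 mean of 5419, at a position of 0.03. It was above the midparent by 0.22 (95% interval 0.01 to 0.43). Ang, from the same start, had a position of 0.66, with 164.9 and 207.2 in F1 and a difference of -0.18 (95% interval -0.63 to 0.28). Whether these positions differ between Rnase4 and Ang was not tested. Supt16 1419741_at read 1515.4 and 1049.1 in F1, the first within the RI strains with high Supt16 and the second near B6, with a difference of -0.15 (95% interval -0.43 to 0.13). It was -0.41 without F1 replicate 1 and 0.11 without F1 replicate 2. Supt16 1449578_at read 187.6 and 231.9, with a difference of 0.64 (95% interval -0.08 to 1.35). The 3 dim Rpgrip1 probe sets differed by -0.32, -0.48 and 0.27 (95% intervals -1.16 to 0.52, -1.29 to 0.33 and -0.56 to 1.1). The intervals given for the hybrid are not adjusted for the number of probe sets and are a description, not a test.

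Strain means of the members were closely correlated. Over 12 strains Rpgrip1 correlated with Rnase4 at 0.96, with Ang at 0.93, and with the Supt16 probe sets at -0.97 and -0.88. Rnase4 and Ang correlated at 0.92. Over the 9 RI strains alone Rpgrip1 correlated with Rnase4 at 0.97, with Ang at 0.95 and with the Supt16 probe sets at -0.96 and -0.91, and Rnase4 with Ang at 0.96. The points share arrays and fall into separate clusters, and the members were picked with such a pattern known, so no p is given.

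**Figure D3:**
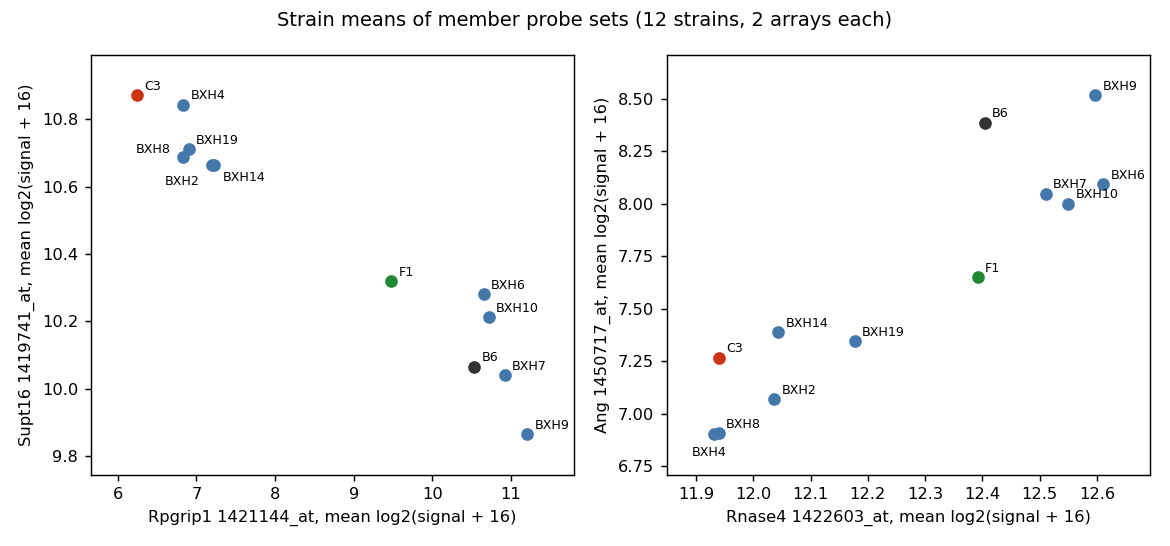
Mean log2(signal + 16) of 12 strains for Supt16 1419741_at against Rpgrip1 1421144_at (left) and Ang against Rnase4 (right), 2 arrays per strain. On the left C3 and 5 RI strains lie at low Rpgrip1 and high Supt16, B6 and 4 RI strains at the opposite end and F1 between; on the right both ribonucleases are low in C3 and high in B6.

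The probe sets of other genes most like each member over the 12 strain means were sought among 12493 named probe sets in the brightest 60%, of which 3.45% are on chromosome 14. For Rpgrip1 the 6 most alike and the 3 most opposite were all on chromosome 14. The alike ones were Rnase4, Ngdn (0.95), Chd8 (0.93), Ang, Ap5m1 (0.92) and Adamdec1 (0.91), and the opposite ones were Supt16, Hnrnpc (-0.91, probe set 1418693_at) and Ttc5 (-0.90). Ngdn is 288 annotated genes after Rpgrip1, Ap5m1 is 123 before and Adamdec1 is 660 after it. Rnase4 had Rpgrip1, Ap5m1, Ang, Ngdn, Dad1 (0.90) and Adamdec1 as its most alike and Supt16, Hnrnpc and Ttc5 as its most opposite, all on chromosome 14. Ang had Rpgrip1, Rnase4, Ngdn, Naa30 (0.91), Ap5m1 and Gmfb (0.88) as its most alike, all on chromosome 14. The most opposite to Ang were Supt16 and Ttc5 on chromosome 14 and Zdhhc4 (-0.84) on chromosome 5. For Supt16, on its brighter probe set, Hnrnpc (0.85), Cacna1d (0.88) and Mtmr9 (0.86 and 0.82 on its probe sets) on chromosome 14 were alike, but so were Cacna1f (0.82) on the X chromosome and Zfand2a (0.81) on chromosome 5. Its most opposite were Rpgrip1, Ngdn and Ang. These correlations describe 12 points from shared arrays.

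No probe set of a surrounding gene passed between the progenitors. From 30 annotated genes before Ang to 30 after Supt16, 25 other genes had 38 probe sets. Limma called 0 of these 38 in C3 minus B6 (background 1.18%), and 4 had an unadjusted p below 0.05 (10.5%, against 7.84% of all probe sets). The members, chosen with this contrast known, are left out of the 38, and 38 probe sets are few at that background. Nothing is therefore read from the 0. Their median difference was 0.02, against -0.01 for all probe sets. The 4 were Ttc5, a p53 cofactor (0.50, SE 0.15, limma adjusted p = 0.166), Ccnb1ip1, a meiotic crossover factor (1.56, SE 0.45, adjusted p = 0.155), the eosinophil-type ribonuclease Rnase2a (1.52, SE 0.55, adjusted p = 0.371) and Hnrnpc 1418693_at, of an RNA-binding protein of nascent transcripts (0.53, SE 0.20, adjusted p = 0.393). Rnase2a was dim, with 34.9 and 107.3 in C3 against 14.7 and 9 in B6.

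**Figure D4:**
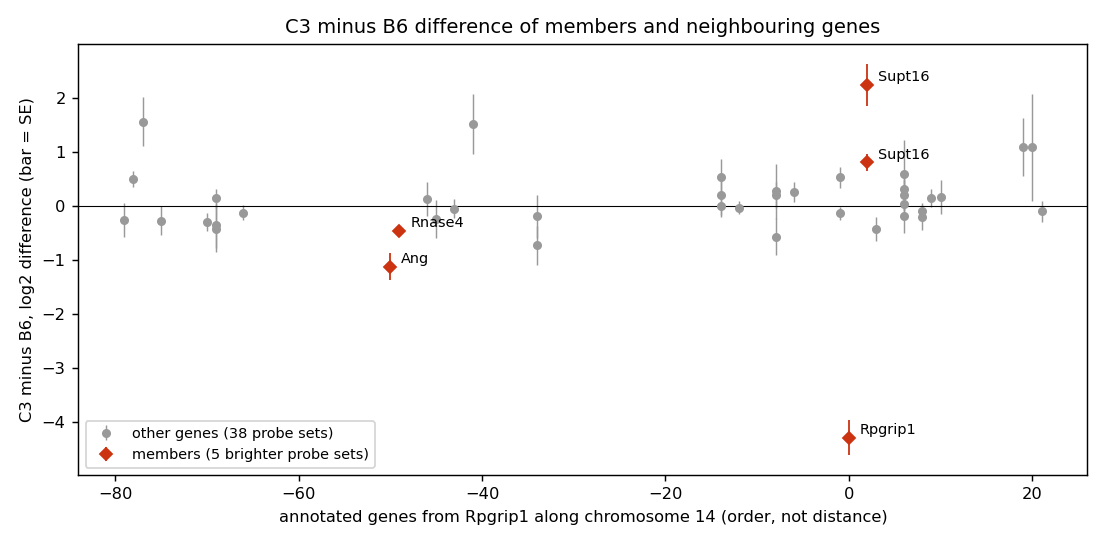
C3 minus B6 log2 difference (bars, SE) of 38 probe sets of neighbouring genes (grey) and the 5 brighter member probe sets (red) by gene order relative to Rpgrip1, not by distance. Rpgrip1 stands at -4.29 and the Supt16 probe sets at 0.81 and 2.25, while the genes between Rnase4 and Rpgrip1 lie on both sides of 0.

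Over the 9 RI strains 3 of the 38 neighbouring probe sets were called (7.89%, background 5.44%): Ndrg2, a stress-responsive member of the N-myc downstream-regulated family, Hnrnpc 1418693_at and Ccnb1ip1. Ndrg2 lies between Rnase4 and Rpgrip1 but had another pattern (correlation with Rpgrip1 -0.13 over 12 strains). The progenitor arrays overlapped, with 628.1 and 562 in C3 against 584.2 and 627.3 in B6, while the RI means ran from 489.8 in BXH7 to 1012 in BXH9. Its range of 1.02 passed (limma F, adjusted p = 0.00114) under all 32 alternatives, with adjusted p up to 0.0078. Hnrnpc, the gene just before Rpgrip1 in the annotation, had an adjusted p of 0.0485 on 1418693_at. That call was lost in 22 of 31 alternatives, with adjusted p up to 0.103, and its brighter probe set 1460240_a_at correlated with Rpgrip1 at 0.44. Ccnb1ip1 was dim, with a mean signal of 46.02 (adjusted p = 0.0164), and stood at 0.0598 without BXH9 replicate 2. Without that array 1 of the 38 was called.

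Chd8, a chromatin remodeller whose gene is the next one after Supt16, went with Rpgrip1 without passing. It read 377.3 and 540.6 in C3, against 612.1 and 603.9 in B6, a difference of -0.42 (SE 0.22, limma adjusted p = 0.733), and its range over RI strains had an adjusted p of 0.245. Ttc5, 78 genes before Rpgrip1, read 545.5 and 664.5 in C3, against 410.8 and 429.7 in B6. It lay on the same side as Rpgrip1 in 9 of 9 RI strains, as did Arhgef40 1455810_a_at, with a mean signal of 133. The other Arhgef40 probe sets, the brighter 1436768_x_at (341.1) and the dim 1438485_at (69.22), did so in only 4 and 6 of 9. The share of all probe sets on the same side in 9 of 9 was not computed. Of the 38 neighbouring probe sets, 3 had a correlation with Rpgrip1 of at least 0.9 in size, those of Ttc5, Hnrnpc and Chd8, against 13 of all 22626 probe sets, a number that includes Rpgrip1 itself and the other members.

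Listed genes related to the members by family or function did not pass between the progenitors. Of 26 genes of the RNase A family and its partners, 6 were measured by 6 probe sets annotated to a single gene. Paralogues reached only by a shared probe set would count as not measured. Among the 6, limma called 0 in C3 minus B6 (1.18% of all probe sets), with 1 at an unadjusted p below 0.05 (7.84% of all). The median difference was 0.08, against -0.01 for all probe sets. That 1 was Rnase2a, which with Rnase1, Rnase2b and Ang2 was already counted among the neighbouring genes above. The inhibitor Rnh1 read 1875.6 and 1801.9 in C3, against 1659.9 and 1943.9 in B6 (0.03, SE 0.13). Plxnb2, reported as a receptor of angiogenin, differed by 0.24 (SE 0.17), and Rnase1, the pancreatic-type ribonuclease, by 0.13 (SE 0.31). Ang2, a paralogue of Ang, had a mean signal of 3.508. Over the RI strains 0 of the 6 passed (5.44% of all).

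Of 26 genes of the cilium base and transition zone that act with Rpgrip1, 15 were measured by 22 probe sets, and 0 were called in C3 minus B6 (1.18% of all probe sets), with 2 (9.09%) at an unadjusted p below 0.05 (7.84% of all). Their median difference was -0.08, against -0.01 for all probe sets. The 2 were Arl3, a small GTPase that unloads lipidated cargo in cilia (-0.46, SE 0.14, limma adjusted p = 0.193), and Tctn2, of the transition zone (-0.50, SE 0.21, adjusted p = 0.491). Rpgr, the binding partner of Rpgrip1, was dim at 71.98 and differed by 0.17 (SE 0.34). Over the RI strains 2 of 22 (9.09%) passed, against 5.44% of all probe sets. Unc119, a carrier of acylated cargo, had an adjusted p of 0.0131 and one of 0.112 without BXH6 replicate 2. Arl3 had an adjusted p of 0.0287 that reached 0.105 without BXH6 replicate 1, and its call also ended without BXH7 replicate 1, BXH8 replicate 2, BXH14 replicate 1 or either BXH19 array, with no mean-variance trend (0.0799) and with a fit to the compared arrays alone (0.064). Their correlations with Rpgrip1 over 12 strains were 0.05 and 0.52.

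Of 25 genes of FACT and transcription elongation, 18 were measured by 39 probe sets. Ssrp1, the other subunit of FACT, was listed but was not among the 18 measured. In C3 minus B6 limma called 0 of the 39 (1.18% of all probe sets), with 1 (2.56%) at an unadjusted p below 0.05 (7.84% of all). Their median difference was 0.13, against -0.01 for all probe sets. The 1 was Nap1l1 1437945_x_at, of a histone chaperone (0.40, SE 0.15, limma adjusted p = 0.422). Other Nap1l1 probe sets differed by -0.09 (1420479_a_at) to 0.28 (1452778_x_at), and the brightest, 1420478_at, by 0.19 (SE 0.14). The elongation factors Supt5 (-0.08, SE 0.11) and Supt6 (0.13, SE 0.17) did not pass, with Supt5 at 1538.8 and 1393.3 in C3 against 1537.7 and 1553.8 in B6. Over the RI strains 1 of 39 (2.56%) passed, against 5.44% of all. It was Asf1b, a histone chaperone of dividing cells (adjusted p = 0.0329), which reached 0.132 without BXH9 replicate 1. Its call also ended without BXH6 replicate 2, BXH8 replicate 1, BXH9 replicate 2, BXH10 replicate 2, BXH19 replicate 2 or either BXH7 array.

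Markers checked the tissue and its cell mixture. Surfactant and lamellar body genes of type 2 alveolar cells (6 of 7 measured) summed to between 45820 and 70710 on every array, and club cell genes (3 of 3) to between 31020 and 50060. Array correlations lay between 0.948 and 0.973 within strains and between 0.902 and 0.966 across strains, and 18 of 24 arrays were closest to their own partner. Skeletal muscle markers (5 of 5) ranged from 938.6 to 25740, and hepatocyte markers (5 of 6 measured) from 233.1 to 5624. In progenitors the muscle sum was 1580 and 12260 in C3, against 13410 and 13910 in B6. The mean log2 level of alveolar macrophage markers (5 of 6 measured) ran opposite to Rpgrip1 over the 12 strains, with a correlation of -0.80. Singly, the markers correlated less strongly with Rpgrip1: Marco -0.65, Chil3 -0.38, Krt79 -0.3, Ctsk -0.11 and Siglecf 0.01. Their summed signal was 5379 and 6618 in C3, against 4632 and 5494 in B6. On the RI arrays low in Rpgrip1 it ran from 4807 to 8115. In the strains high in Rpgrip1 it was 3077 and 2225 in BXH10 and 3506 and 3311 in BXH7, below that range. It was 5014 and 5563 in BXH9 and 8257 and 6546 in BXH6. Of these 5 markers, 1 was called in C3 minus B6, Krt79. Their part in the results was not tested.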

How the data were processed

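Lung RNA of 24 samples was measured on Affymetrix 430A arrays. Trizol RNA was copied from an oligo(dT) primer and amplified into biotin-labelled cRNA, per the labels' protocols. The deposited value of a probe set on an array is a linear intensity; the software behind them is not given in the sources used here. Trimmed means (2% from each end) were 500.11 to 500.13 on all arrays, so they carry a common scale and were not normalized again. Groups came from sample titles. The labels and files used here name no batch. Genes came from the platform annotation: 20380 of the 22626 probe sets tested had 1 symbol, 691 several and 1555 none. Of the first, 20351 matched RefSeq (GRCm38.p6), used for symbols, gene order and start windows. Probe sets with several symbols were tested but assigned to no gene. Any that a member, neighbour or listed gene shares with another gene was therefore left out of its values.

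Of 22690 probe sets, the 22626 that are not among the 64 controls were fitted as log2(signal + 16) over 12 strains with limma 3.58.1 in R 4.3.3 (lmFit, eBayes with a mean-variance trend; 12 residual degrees of freedom), with Benjamini-Hochberg adjustment within each contrast and a threshold of 0.05. The code was tested on simulated data. The number of arrays limits the precision. The members and lists were chosen with earlier results of these data known. Named were all member probe sets, called and leading neighbours within 30 annotated genes, called members of each list and up to 4 others of smallest p, and, for the brightest probe set of each member, the 6 most and 3 least correlated probe sets. List genes were matched by current symbol, through probe sets with 1 symbol only. Alternatives were quantile normalization, offsets of 1 and 64, filters, no trend, a replicate block, fits to the compared arrays alone, the linear midparent and the omission of each array in turn.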

Additional observations from a re-analysis of the deposited data

How the results depend on the processing

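Every member value kept its direction where limma called it in C3 minus B6. The bright Rpgrip1 probe set stayed between -4.67 (without C3 replicate 2) and -3.61 (offset 64), and 5 RI strains stayed nearer C3 for Rpgrip1, Ang and Supt16 1419741_at in every alternative that gave all strains. The number of probe sets called in C3 minus B6 was 268. It was 138 with 1 probe set per gene in the top 60%, 74 with only the arrays compared, and 146 to 276 with 1 array left out, the low counts being 146, 154 and 153 without C3 replicate 2, B6 replicate 1 and B6 replicate 2. F1 minus midparent called 14, but 2 with 1 probe set per gene, 6 with no trend, 1 with only the arrays compared, and 2 to 15 with 1 array left out. The count over the 9 RI strains was 1231, but 772 with 1 probe set per gene, and 925 to 1322 with 1 array left out. The member probe sets called numbered 1 with only the 4 progenitor arrays and 5 with quantile normalization or within the top 60% of probe sets, in place of 4. The added one was Rnase4, also called with 1 probe set per gene, and the cause was not tested. As the members were chosen with this contrast known, nothing is read from these calls. The replicate block gave 259, 14 and 1191 calls. Same-numbered arrays showed no deviation common to all strains: the correlation of replicate differences had a median of 0.00422 over 66 pairs of strains. It ran from -0.293 to 0.339 and was above 0.1 in 20 of them, so some strains may share deviations. The replicate numbers were not taken as pairs. Low signal limits the 3 dim Rpgrip1 probe sets: 1451785_at changed sign between -0.59 and 0.65 with 1 B6 array left out. Members of the dim lists can hold differences that were not detectable here.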

Other observations

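Outside the window of neighbouring genes, 668 probe sets of chromosome 14 were tested, and limma called 5 in C3 minus B6 (0.749%, against 1.18% of all probe sets). Psmd6, a regulatory subunit of the proteasome, was lower in C3, with 72.4 and 66.7 against 413.9 and 489.4 in B6 (log2 difference -2.45, SE 0.34, limma adjusted p = 0.000757). Pxk, a sorting nexin with a kinase-like domain, was also lower in C3 (-0.79, SE 0.16, adjusted p = 0.0168). Rb1, the retinoblastoma tumour suppressor, was higher in C3 (0.68, SE 0.13, adjusted p = 0.00831), as were the slow myosin Myh7 (1.57, SE 0.25, adjusted p = 0.00261) and the clock repressor Nr1d2 (1.53, SE 0.17, adjusted p = 5.77e-05).

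Psmd6 and Pxk, 797 and 846 annotated genes before Rpgrip1, lay on the same side as Rpgrip1 in 7 of 9 RI strains each. Myh7, 285 genes after it, did so in 7 of 9, and Rb1, 769 genes after it, in 8 of 9. Nr1d2 lay nearer C3 in all 9 RI strains. Its mean signal over all arrays, 2421, was above the means of both C3 (1656) and B6 (562.3). Nearer C3 therefore does not mean a level like that of C3. The share of all probe sets that reach such counts of RI strains was not computed. Some uncalled neighbours, such as Pnp (7 of 9, correlation with Rpgrip1 0.44 over 12 strains), reached them and others did not. These sides are a description and were not tested.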
